A study of Saccharomyces cerevisiae with 100 samples.

Results

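Among 95 sequenced suppressors of the rad53∆ sml1∆ checkpoint mutant, 9 carried the same missense single-nucleotide variant (SNV) in SDT1, and these 9 strains are described here as the SDT1-SNV lineage. They were chosen by an allele frequency, the share of sequencing reads with the changed base, of 0.9 or more at this SNV, so their values at it describe the choice and are not a result. The 9 strains are SUP4, SUP35, SUP36, SUP38, SUP39, SUP40, SUP45, SUP46 and SUP47. The word lineage stands for this sharing alone, and descent was not tested. All suppressors and their control, YJT75, are labelled as MATa sml1∆::URA3 rad53∆::LEU2 derivatives of the W303 background, so the control lacks RAD53 and SML1 as well. The study isolated the suppressors as colonies that grew on plates with methyl methanesulfonate (MMS), an alkylating agent, and describes them as independent isolates. For sequencing, all strains were grown in rich medium (YPD) without MMS, and each was sequenced as 1 library. The lineage was compared with 28 suppressors that are numbered up to 72 and were under 0.1 at the SDT1 SNV and at 2 further widely shared SNVs, in GUD1 and IRA1.

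Rad53 is the effector kinase of the DNA damage and replication checkpoint in budding yeast, and Sml1 inhibits ribonucleotide reductase, so that deletion of SML1 keeps cells without RAD53 alive but sensitive to agents that damage DNA. A suppressor colony can carry the mutation that gave resistance together with many others that have no part in it. SNVs that several strains share can be older than the strains, and nested sharing, where a small set of carriers lies inside a larger one, is the pattern that successive mutations leave in a clone that divides. SDT1 encodes a nucleotidase that acts on pyrimidine nucleotides.

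The SDT1 SNV (YGL224C, chromosome VII, C78715A; the reference base is first, then the position, then the changed base; positions are counted from 1 at the chromosome's start on the reference strand of sacCer2) was listed at 0 in YJT75. Its allele frequency was 1 in SUP4, SUP35, SUP38, SUP40, SUP45 and SUP47, 0.9953 in SUP39, 0.9933 in SUP36 and 0.9608 in SUP46. SUP46 was therefore the strain just inside the limit. The highest value in the 86 suppressors outside the lineage was 0.0058, in SUP62. No strain lay between these values. All 8 suppressors with labels from 35 to 47 carried the SNV, and SUP4 was the only carrier outside that run of numbers.

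The 9 strains shared further SNVs in a nested order. With 0.4 as the limit, the minimum of the deposited table, 9 SNVs were found in 2 or more of the strains, with 4 distinct sets of carriers. The SDT1 SNV holds all other sets because it chose the strains, and the 6 SNVs of SUP39 and SUP47 have the same carriers. Among the 13 pairs of SNVs that neither of these fixes, 7 had nested carrier sets and 6 had sets with no strain in common. Sets that overlapped otherwise numbered 0. The 6 SNVs of SUP39 and SUP47 enter most of these pairs with the same carriers, so the 13 pairs repeat a few comparisons of sets. The widest of the other sets lacks only SUP4, so it holds any set without SUP4. The counts of pairs therefore do not measure how strongly the sharing is nested. None of the 9 SNVs reached 0.4 outside the lineage, where the highest value was 0.0098.

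The widest set inside the lineage was that of an SNV between genes on chromosome IV (position 746332, G746332A), carried by every strain but SUP4. It stood at 1 in SUP35, SUP36, SUP38, SUP39, SUP40, SUP45 and SUP47, at 0.9859 in SUP46 and at 0 in SUP4. The deposited table lists MKC7, which encodes an aspartyl protease of the cell surface, and SWI5, a transcription factor of late mitosis, as the neighbours of this position. In the gene order of the R64 assembly TAF12, a subunit of TFIID and SAGA, lies between these genes, and its distance from the SNV was not determined.

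Inside those 8 strains there were 2 pairs. SUP35 and SUP40 shared 1 SNV, a missense change in DCP2 (YNL118C, chromosome XIV, position 405341, T405341G), at 1 in both strains and at 0 in the other 7. DCP2 encodes the catalytic subunit of the enzyme that removes the cap of mRNAs. SUP39 and SUP47 shared 6 SNVs, of which 4 were missense and 2 synonymous. The missense changes fell in UPC2, a transcription factor of sterol synthesis genes, PRM15, a phosphoribomutase, NIP100, the large subunit of dynactin, and CST9, a SUMO ligase of meiotic chromosome pairing. The synonymous changes fell in EXO84, an exocyst subunit, and DSF1. The plot of shared SNVs gives each value.

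**Figure D1:**
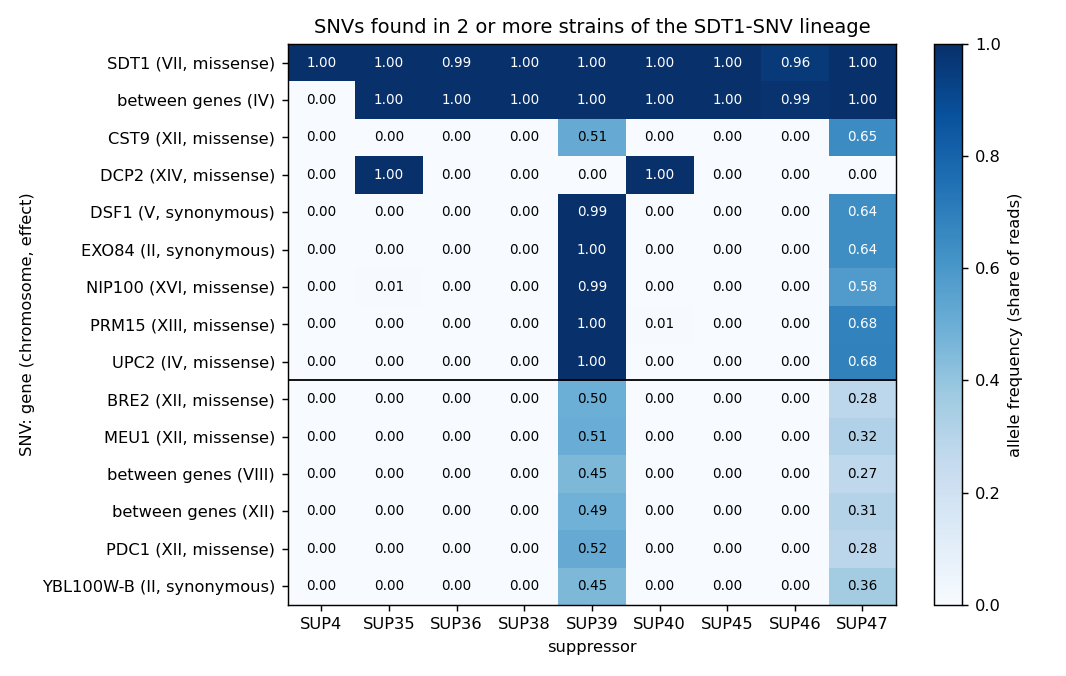
Allele frequency of each SNV shared by strains of the SDT1-SNV lineage (rows, gene with chromosome and effect) in the 9 suppressors (columns), with the colour scale from 0 to 1. Above the line are the 9 SNVs at 0.4 or more in at least 2 strains: SDT1 fills the first row, the chromosome IV SNV all columns but SUP4, DCP2 the columns SUP35 and SUP40, and 6 SNVs the columns SUP39 and SUP47; below it are 6 SNVs at 0.4 or more in SUP39 and between 0.27 and 0.36 in SUP47.

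SUP39 and SUP47 differed in the level of what they shared. In SUP39 the 5 shared SNVs outside chromosome XII stood between 0.9935 and 1. In SUP47 the same SNVs stood at 0.6845 (UPC2), 0.6806 (PRM15), 0.6389 (DSF1), 0.638 (EXO84) and 0.5789 (NIP100), although the SDT1 and chromosome IV SNVs were at 1 in that library. The CST9 SNV, on chromosome XII, went the other way, at 0.513 in SUP39 and 0.6454 in SUP47. A further 6 SNVs were at 0.4 or more in SUP39 and below it in SUP47. On chromosome XII these were missense SNVs in BRE2, a subunit of the COMPASS histone methyltransferase (0.4987 in SUP39 and 0.2809 in SUP47), MEU1, a methylthioadenosine phosphorylase (0.5068 and 0.3189), and PDC1, pyruvate decarboxylase (0.5154 and 0.283), and 1 SNV between genes (0.4861 and 0.3053). The other 2 were a synonymous SNV in YBL100W-B, a retrotransposon reading frame with copies elsewhere in the genome (0.4535 and 0.3562), and an SNV between genes on chromosome VIII (0.4545 and 0.2698). Reads from the copies of such an element cannot be told apart, so the value in YBL100W-B is uncertain.

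Each strain of the pair also had SNVs that the other lacked. In SUP39 there were 12 at 0.4 or more that were at 0 in SUP47. Of these, 8 lay outside chromosome XII, all at 0.9932 or more, and included missense changes in YAP6, a bZIP transcription factor, and NUP100, a nucleoporin, and synonymous changes in GAT2 and KRE5. The other 4 lay on chromosome XII at 0.4665 to 0.4952 and included missense changes in PPR1, the activator of uracil synthesis genes, and REA1, an ATPase of ribosome assembly. In SUP47 there were 8 SNVs, between 0.5625 and 0.6646, that were at 0 in SUP39. They included missense changes in SIR3, a silencing protein (0.5897, chromosome XII), SNX4, a sorting nexin (0.6131), ATG11, a selective autophagy adaptor (0.6646), and NAN1, a ribosome biogenesis factor (0.6143), where a synonymous SNV at the next base stood at 0.6103. A synonymous SNV in UGA4, a permease, stood at 0.6391. The ranges of the shared SNVs outside chromosome XII and of the SNVs that only SUP47 carried overlapped in SUP47. The study gives a median coverage across all samples, but the depth at single positions is unknown. No interval is therefore given for single allele frequencies.

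**Figure D2:**
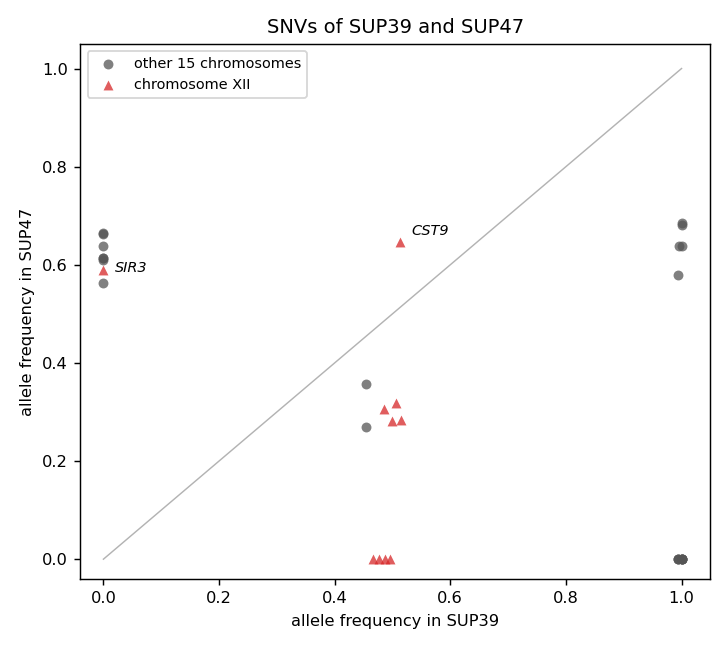
Allele frequency in SUP39 (x axis) against SUP47 (y axis) for SNVs at 0.4 or more in either strain other than the SDT1 and chromosome IV SNVs, with chromosome XII as red triangles and a grey line of equal values. The 12 SNVs in both strains lie between 0.2698 and 0.6845 in SUP47, 12 lie on the x axis, 8 lie on the y axis, and CST9 alone among the shared SNVs lies above the line.

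SUP47 had the lowest median allele frequency outside chromosome XII among the 9 strains. It had 16 SNVs at 0.4 or more, of which only the SDT1 and chromosome IV SNVs reached 0.7, and that median was 0.639. In the other 8 strains it lay between 0.9579, in SUP46, and 1. SUP47 had 12 SNVs under 0.7 outside chromosome XII, SUP39 had 2, and the others had 0. Among the 28 comparison suppressors the median lay between 0.9227 and 1, and no strain had more than 1 such SNV. Over all 86 suppressors outside the lineage the lowest median was 0.589 and the highest number of such SNVs was 41. Values like those of SUP47 were therefore not particular to the lineage.

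In SUP46 the SNVs outside chromosome XII ranged from 0.8773 to 0.9859, with a median of 0.9579. Of 48 SNVs outside chromosome XII that were at 0.7 or more in SUP1 and under 0.4 in every other suppressor, 27 were listed in SUP46 between 0.0233 and 0.0688, with a median of 0.0406 over the 27, and 21 were at 0. Of 9 private SNVs of SUP1 on chromosome XII, 0 were above 0 in SUP46. In the 93 other suppressors the 48 SNVs reached at most 0.0196, and in YJT75 at most 0.0101. In the other direction, the 31 private SNVs of SUP46 reached at most 0.0032 in SUP1. SUP1 belongs to the comparison. Whether DNA of SUP1 was present in the SUP46 library was not tested.

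Chromosome XII behaved differently from the other 15 chromosomes in most strains of the lineage. Of the 46 SNVs on chromosome XII at 0.4 or more, 42 (91.3%) were under 0.7, and in 7 of the 9 strains every one was. The exceptions were SUP46, whose 3 SNVs stood at 0.8916, 0.9121 and 0.9292, and SUP40, with 1 SNV at 0.5073 and 1, a synonymous SNV in TMA10, at 1. SUP4 had 11 SNVs on chromosome XII with a median of 0.4803, SUP36 had 7 with a median of 0.4955, and SUP45 had 6 with a median of 0.5368. In the comparison 91.4% of 140 chromosome XII SNVs were under 0.7. Every chromosome XII SNV was under 0.7 in 7 of 9 lineage strains and in 21 of the 27 comparison strains that had any, which is 77.8% in both (two-sided Fisher's exact test, p = 1, adjusted p = 1 over 12 tests). With a limit of 0.6 the difference between the shares was -18.5 percentage points (lineage minus comparison, Fisher's exact test, p = 0.409). The minimum of 0.7 that the study used for its gene lists thus left out most SNVs of this chromosome in either group.

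**Figure D3:**
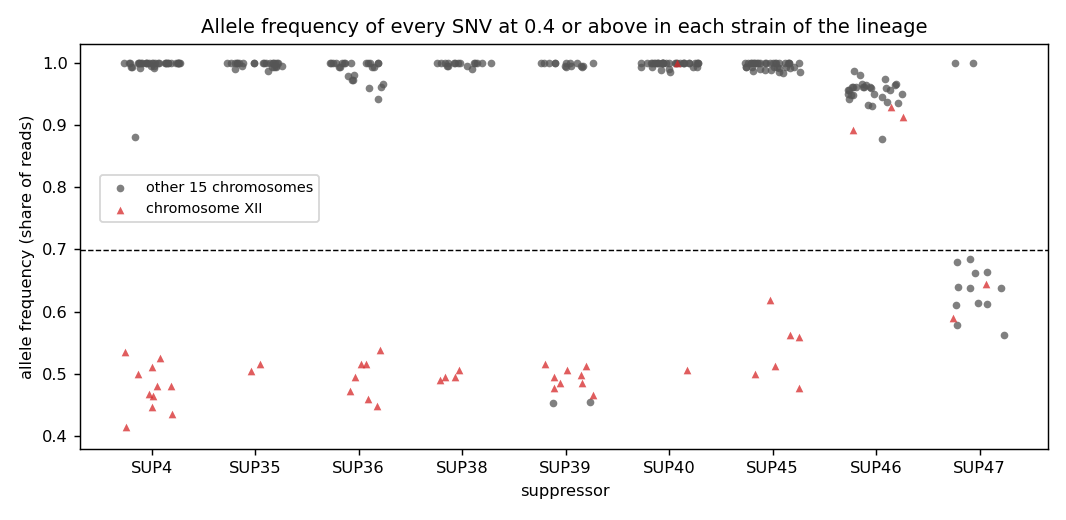
Allele frequency (y axis, from 0.38) of every SNV at 0.4 or more in each of the 9 strains (x axis), chromosome XII as red triangles, the other chromosomes as grey points, and 0.7 as a dashed line. Grey points lie at 0.8773 or above except for 2 in SUP39 and 12 in SUP47, and the triangles lie between 0.4157 and 0.6454 except for the 3 of SUP46 and 1 of 2 in SUP40.

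The load of SNVs in the lineage did not differ detectably from that of the comparison. The private SNVs, those at 0.7 or more in 1 strain and under 0.4 in all other suppressors, numbered 36 in SUP45, 35 in SUP4, 34 in SUP40, 31 in SUP46, 23 in SUP35, 23 in SUP36, 15 in SUP38, 8 in SUP39 and 0 in SUP47. The mean was 22.8 ± 12.8 (SD, n = 9) against 29.2 ± 10.6 (SD, n = 28) in the comparison, where the range was 8 to 48 (exact permutation test over strains, two-sided, p = 0.144, adjusted p = 0.288). Private nonsilent SNVs, which change or end the protein, numbered 26 in SUP45, 19 in SUP4, 18 in SUP40, 12 in SUP35, 12 in SUP36, 9 in SUP46, 6 in SUP38, 2 in SUP39 and 0 in SUP47. Their mean was 11.6 ± 8.43 (SD, n = 9) against 14.6 ± 6.05 (SD, n = 28; exact permutation test, p = 0.246, adjusted p = 0.422). Without SUP39, SUP46 and SUP47, an alternative chosen after seeing the data, the difference in nonsilent SNVs turned to 0.929 more in the lineage. Against all 86 other suppressors the differences shrank to -2.47 private SNVs and -1.13 nonsilent SNVs. Those 86 include the 49 carriers of the GUD1 SNV and the 9 of the IRA1 SNV. SNVs that such carriers share with one another do not count as private either. SUP39 and SUP47 were low in both counts, in part by construction, since SNVs they share are not private and those of SUP47 are under 0.7.

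Nonsense SNVs numbered 1 in the lineage and 20 in the comparison, a difference that did not pass the adjusted threshold of 0.05. The one in the lineage was in SCS2, an endoplasmic reticulum membrane protein that binds lipid regulators, in SUP38 (0.9943). The comparison held its private nonsense SNVs in 17 of its 28 strains (60.7%), against 1 of 9 (11.1%) in the lineage. The mean was 0.111 ± 0.333 (SD, n = 9) against 0.714 ± 0.713 (SD, n = 28; exact permutation test, p = 0.0197, adjusted p = 0.0870). Against all 86 other suppressors the difference in means went from -0.603 to -0.366 (exact permutation test, p = 0.181). The share of coding SNVs that were nonsilent was 71.6% ± 14.6 (SD, n = 8) against 74.8% ± 10.6 (SD, n = 28; exact permutation test, p = 0.495, adjusted p = 0.742). Shares leave out SUP47, which had no private SNV at 0.7.

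**Figure D4:**
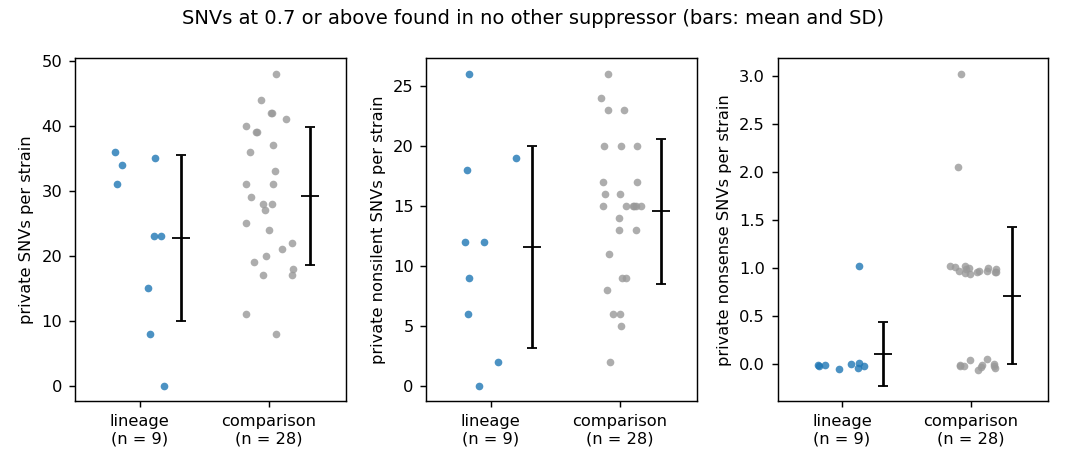
Private SNVs per strain at 0.7 or more (left), the nonsilent ones among them (middle) and the nonsense ones (right) in the 9 lineage strains (blue) and the 28 comparison strains (grey), each point a strain (spread sideways, and slightly up and down at right) and each bar the mean ± SD. The groups overlap in all 3 panels; 1 lineage strain has a nonsense SNV, and comparison strains have up to 3.

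Most private SNVs of the lineage lay in genes. The share outside genes was 29.0% ± 12.7 (SD, n = 8) against 29.1% ± 11.6 (SD, n = 28; exact permutation test, p = 0.975, adjusted p = 1), with the lowest value of the lineage in SUP36 (13.04%) and the highest in SUP39 (50%). Over the 9 strains the SNVs at 0.7 or more were 213 distinct ones, of which 108 were missense, 1 nonsense, 35 synonymous and 56 outside genes. Genes for transfer RNAs held 9 of the 205 private SNVs (4.39%), 6 in exons and 3 in introns, in 5 of the 9 strains. In the comparison they held 26 of 817 (3.18%) in 19 of 28 strains. SUP4 had 4 of the 9, in tW(CCA)G1, tH(GUG)G2, tN(GUU)K and tP(UGG)O3. Transfer RNA genes have near-identical copies in the genome, so reads at these SNVs could have been placed at the wrong copy.

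No class of base change differed from the comparison past the adjusted threshold, and the lowest p-values were those of C-to-G and T-to-C. Changes are named from the pyrimidine of the base pair. C-to-G made up 0% of the private SNVs of SUP39, 5.88% of SUP40, 6.67% of SUP38, 8.70% of SUP35, 9.68% of SUP46, 13.04% of SUP36, 17.1% of SUP4 and 22.2% of SUP45. The mean was 10.4% ± 6.95 (SD, n = 8) against 16.8% ± 5.05 (SD, n = 28), where the range was 8% to 25.8% (exact permutation test, p = 0.00639, adjusted p = 0.0767). The groups overlapped, with 5 of the 8 strains in the range of the comparison. Leaving out SUP4 (adjusted p = 0.0350) or SUP45 (adjusted p = 0.00769 by the same permutation test) brought this class past the threshold, and so did a minimum allele frequency of 0.4 (adjusted p = 0.0113). Leaving out SUP39 took it further from the threshold (difference of -4.92 points, adjusted p = 0.215), as did the comparison with all 86 other suppressors (-5.37 points, adjusted p = 0.441).

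T-to-C made up 16.7% in SUP45, 22.9% in SUP4, 25.8% in SUP46, 33.3% in SUP38, 34.8% in SUP36, 35.3% in SUP40, 50% in SUP39 and 52.2% in SUP35. The mean was 33.9% ± 12.4 (SD, n = 8) against 24.6% ± 8.77 (SD, n = 28; exact permutation test, p = 0.0218, adjusted p = 0.0870). Without SUP45 the adjusted p of this permutation test was 0.0318, and without SUP35 it was 0.288. The difference of 9.24 points fell to 4.90 at a minimum allele frequency of 0.4 (adjusted p = 0.272) and to 3.48 with every SNV counted in each carrier (adjusted p = 0.511). In that last count SUP47 entered with 1 SNV, a C-to-T change. Without SUP47, an alternative added after seeing the data, it gave 6.99 points (exact permutation test, adjusted p = 0.152). Of the 2 strains with the highest T-to-C share, SUP39 had 8 private SNVs and SUP35 had 23, the median of the 9 strains. At these numbers 1 SNV more or less moves the share by several points.

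The remaining 4 classes had larger p-values. C-to-T was 22.8% ± 12.2 (SD, n = 8) against 16.3% ± 7.14 (SD, n = 28; exact permutation test, p = 0.0616, adjusted p = 0.148). Without SUP39 the C-to-T difference went from 6.51 to 2.62 points (p = 0.374 by the same permutation test). T-to-A was 12.6% ± 8.87 (SD, n = 8) against 19.4% ± 8.45 (SD, n = 28; exact permutation test, p = 0.0561, adjusted p = 0.148). For C-to-A (17.03% against 18.9%) the adjusted p of the exact permutation test was 0.771, and for T-to-G (3.30% against 3.997%) it was 0.838. Strains entered these tests as if independent, although the shared SNVs above link the 9.

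**Figure D5:**
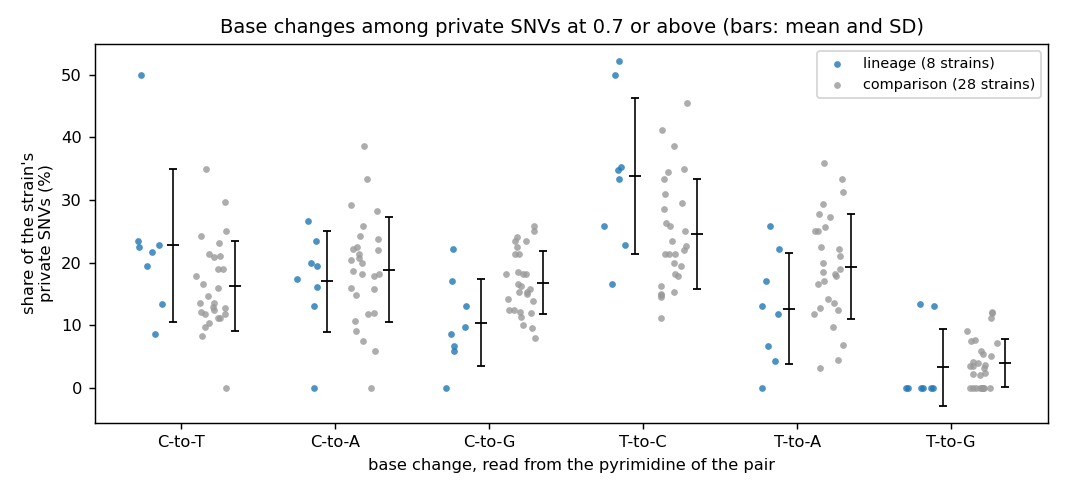
Share of each strain's private SNVs at 0.7 or more (y axis, %) that fell in each of 6 base change classes (x axis), for 8 lineage strains (blue) and 28 comparison strains (grey), with bars for the mean ± SD. The lineage points lie lower for C-to-G (mean 10.4% against 16.8%) and higher for T-to-C (33.9% against 24.6%), with overlap in every class.

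Mutated genes were mostly particular to 1 strain. The nonsilent SNVs at 0.7 or more in the lineage were 108 distinct missense SNVs and 1 nonsense SNV. Of the genes that held them, 4 were hit in 2 or more strains. SDT1 and DCP2 did so through the shared SNVs described above. The other 2 were hit at different positions, IRC13 at 779902 in SUP4 (1) and 780106 in SUP35 (0.9943) on chromosome XV, and NIP100 at 221489 in SUP36 (0.9928) and 221317 in SUP39 (0.9935) on chromosome XVI. At 0.4 or more, with 133 distinct missense SNVs and 1 nonsense SNV, the number of genes in 2 or more strains was 8. The additions were UPC2, PRM15 and CST9 of the pair SUP39 and SUP47, and YLR108C at 367190 in SUP4 (0.4684) and 367776 in SUP45 (0.5). The same count was not made in the comparison, so whether 4 or 8 genes lie above its level was not tested. Outside the lineage, DCP2 was hit by other nonsilent SNVs at 0.7 or more in SUP6, SUP91 and SUP131.

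Genes with a private nonsilent SNV were counted once per strain, and 27.7% of them in the lineage (28 instances) were hit by a nonsilent SNV at 0.7 in another of the 95 suppressors as well. In the comparison the share was 28% of 403 instances, so the lineage lay at the background. SUP4 had 9 such genes. They were SRB8, a Mediator subunit, PIB2, an activator of the TORC1 kinase complex, KSP1 and YCK1, both kinases, MLP2, a protein of the nuclear pore basket, HMG1, which makes mevalonate for sterols, PDS5, a cohesin factor, TEA1, a transcriptional activator of Ty1 elements, and IRC13. SUP35 had MMS4, LAM5, PUF4, MYO2 and IRC13, which include a subunit of the Mus81 nuclease and the myosin that carries secretory vesicles. SUP36 had MLP1, the partner of MLP2 in the nuclear basket, DNF3, a lipid flippase, and NIP100. SUP40 had MTW1, a kinetochore protein, SDH1, the flavoprotein of succinate dehydrogenase, AEP1 and SRL1. SUP45 had EDE1, an endocytosis scaffold, SNT1, IRC5, PHO81, an inhibitor of the Pho85 kinase, and DYN1, the dynein heavy chain. SUP46 had TOM1, a ubiquitin ligase (0.9319), and PRY3 (0.9565). SUP38, SUP39 and SUP47 had none.

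Private nonsilent SNVs fell on the same gene of 1 strain in 3 instances over the 9 lineage strains and in 5 over the 28 comparison strains. The groups differ in size, so the bare counts do not rank them, and a difference in rate was not tested. MPT5, an RNA-binding protein that recruits the deadenylase, carried 2 missense SNVs in SUP4, 327 bases apart and both at 1. TEA1 carried 2 in SUP4, 145 bases apart (0.9931 and 1), and NST1 carried 2 in SUP40, 700 bases apart (1 and 0.9933).

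In lists of genes tied to the checkpoint and to the pathways of the study, the lineage held the following nonsilent SNVs at 0.7 or more, given as counts without a test. In the list of 34 genes of mRNA decay, 4 of 9 lineage strains (44.4%) had one. The genes were MPT5 in SUP4, DCP2 in SUP35 and SUP40, and CDC39, the scaffold of the Ccr4-Not complex, in SUP45 (0.9877). SUP35 and SUP40 count the same DCP2 SNV, so the 4 strains stand for 3 separate hits of a gene. In the comparison 6 of 28 strains (21.4%) had a nonsilent SNV in the list. In the list of 46 nucleotide metabolism genes all 9 strains were counted through SDT1, which chose them. The only other member of that list was PHM8, the paralog of SDT1, in SUP45 (position 226228 on chromosome V, 0.9852). In the comparison 2 of 28 strains (7.14%) had a nonsilent SNV in the list. SUP45 therefore carried missense SNVs in both paralogs.

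Of the Rpd3L list, 22 genes of the histone deacetylase complex in its expanded form with RPH1, SNT1 was hit in SUP45 (1 of 9, 11.1%, against 2 of 28, 7.14%). Of 49 DNA repair genes, MMS4 was hit in SUP35 (0.9933) and MSH3, a mismatch recognition protein, in SUP40 (1), which is 2 of 9 strains (22.2%) against 5 of 28 (17.9%). Of 29 silencing genes none was hit in the 9 lineage strains at 0.7, against 5 of 28 comparison strains (17.9%). At 0.4 SIR3 in SUP47 (0.5897) was added, which is 1 of 9 (11.1%) against 6 of 28 (21.4%). Of 47 checkpoint and replication fork genes none was hit in the 9 lineage strains at 0.7 or at 0.4. In the comparison 4 of 28 strains (14.3%) had a hit at 0.7 and 5 of 28 (17.9%) at 0.4. With shares this low, no hit in 9 strains does not set the lineage apart. Of the 32 genes that the study tested by deletion, 2 of 9 lineage strains (22.2%) had one hit, SUP4 with MPT5 and MLP2 and SUP39 with NUP100, against 17 of 28 comparison strains (60.7%). The study chose those 32 genes on these same samples, so this count is not independent evidence.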

How the data were processed

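Genomic DNA of 95 suppressors and YJT75 was sequenced as 1 library each. The authors mapped read pairs to the sacCer2 genome (Novoalign 2.07.14, Picard 1.81), counted bases with deepSNV, called SNVs jointly, discarded SNVs at 0.1 or more in the control and multiallelic loci, kept SNVs at 0.4 or more in a suppressor, and annotated them with snpEff. The deposited values are allele frequencies, other than counts, with 10 written where the value is 1 (1814 cells); these were read as 1. The study gives a median coverage across all samples, but depth at single positions is unknown, so no interval or detection limit is given. The p-values measure only the spread between strains with 1 library each.

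SNVs were counted at 0.7 unless stated. Symbols came from R64 (1506 of 1632 identifiers matched), with positions left in sacCer2. Means were compared with a two-sided exact permutation test over strains, counting every choice of members, and proportions with Fisher's exact test. Adjusted p-values are Benjamini-Hochberg over 12 tests. The permutation test was tested on simulated counts of independent strains. Fisher's exact test, shares and strains linked by shared SNVs were not simulated. Calculations used scipy 1.17.1 and pandas 2.3.3 in Python 3.11.15, with numpy 2.4.6, and plots matplotlib 3.10.9. The members, gene lists and tests were chosen with earlier results of these data known. Named genes are those with an SNV shared by strains of the lineage, with a nonsense SNV, hit in 2 or more of its strains, in a list, or hit by a private nonsilent SNV and also in another suppressor; other names were chosen after their values were seen. Alternatives changed the minimum allele frequency, the limit on chromosome XII, the comparison group, the counting of shared SNVs and the strains left out. The 2 other deposited tables, of other strains, were not used.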

Additional observations from a re-analysis of the deposited data

Results flagged for a closer look

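Each of 15 measures was tested over the lineage strains for a value far from the rest with Dixon's criterion, which chance meets in about 1 group in 20. SUP47 stood apart by its median allele frequency outside chromosome XII of 0.639 and by its 12 SNVs under 0.7 there. SUP39 stood apart by the share of C-to-T changes, 50% of its 8 private SNVs. In values outside the comparisons, the median allele frequency in SUP46 of the 48 SNVs private to SUP1 was 0.0264, against 0 for every other pair of a lineage strain and another suppressor that was looked up.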

How the results depend on the processing

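Of 200 alternative values of the 11 tests with a difference other than 0, 176 kept their direction and their side of the threshold, 7 came past it and 17 changed sign. The chromosome XII difference, 0 as reported, went both ways over its 13 alternatives, with none past the threshold (lowest p = 0.409, Fisher's exact test). At a minimum allele frequency of 0.4, the difference (lineage minus comparison, in points) was -7.07 for C-to-G (adjusted p = 0.0113, exact permutation test), 0.943 for C-to-A and 0.119 for T-to-G. Against all 86 other suppressors the share outside genes differed by 2.38. With every SNV but those that chose the strains counted in each carrier, the differences were 15.7 for C-to-T and -6.92 for C-to-G (both adjusted p = 0.0139, exact permutation test), 8.18 outside genes and 0.491 for T-to-G; SUP47 then has 1 SNV, the C-to-T change on chromosome IV (100%), and without it, an alternative added after seeing the data, neither class passed, and the differences outside genes and for T-to-G were 0.304 and 1.12. Also added after seeing the data, that count at 0.4 gave -6.16 for C-to-G and 1.82 for T-to-G, and leaving out SUP39, SUP46 and SUP47 gave 0.929 nonsilent SNVs, 3.51 for the nonsilent share, 1.12 for C-to-A and 0.40 for T-to-G. Leaving out 1 lineage strain at a time, the range was -3.15 to 2.13 outside genes, 2.62 to 8.52 for C-to-T, -3.25 to 0.561 for C-to-A, -8.10 to -4.92 for C-to-G and 6.62 to 11.7 for T-to-C. With SUP4, SUP35, SUP36 or SUP45 left out the share outside genes changed sign, as C-to-A did without SUP39. The cause of these changes was not tested. No paired analysis was possible because the groups compared share no replicate numbers. The unknown depth at single positions limits single values, above all those near 0.02 in SUP46, and 9 strains linked by shared SNVs limit the means.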

Other observations

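A list of 16 genes of the dynein pathway, which positions the mitotic spindle in budding yeast, was written after the values were seen and was given no test. At 0.7 or more, 4 of the 9 lineage strains (44.4%) had a nonsilent SNV in it: SUP36 and SUP39 in NIP100, the large subunit of dynactin, SUP45 in DYN1, the dynein heavy chain, and SUP46 in KIP2, a kinesin that carries dynein along microtubules (0.9648). At 0.4 SUP47 was added through the NIP100 SNV that it shares with SUP39, so that 5 strains held 4 distinct SNVs. In the comparison 1 of 28 strains (3.57%) had one, in PAC11, a dynein intermediate chain, and over all 86 other suppressors 3 (3.49%) had one, the others being in JNM1, a dynactin subunit, and DYN1. SUP40 carried missense SNVs in 2 subunits of succinate dehydrogenase, SDH1 (1) and SDH3 (0.9899), also noticed after the values were seen.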
